A study of Mus musculus with 6 samples.

Results

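The 37 genes described here are 31 immediate early genes and 6 heat shock genes, taken by symbol from a list of AP-1, Egr, Ier, Nr4a, Dusp, Klf, feedback and heat shock genes. The list goes by family and function and its rule uses no measured value, although it was drawn up with earlier results of these libraries known. All 37 were found among the 57180 gene identifiers of the data, and 36 of them were among the 17639 genes that passed the filter on low counts. Egr4, an Egr transcription factor, was the member that did not.

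RNA-seq was carried out on primary corneal endothelial cells, the sheet of cells on the inner face of the cornea that keeps it clear, from untreated mice. All 6 libraries came from mice of genotype Col8a2Q455K/Q455K, which carry a mutation in a collagen chain of Descemet membrane and model Fuchs endothelial corneal dystrophy. In 3 of the libraries this was the whole genotype (the Col8a2 group, labelled control), and 3 were labelled Col8a2Q455K/Q455K/Tcf4+/- (the Tcf4+/- group, labelled Tcf4 knockout), so no wild-type library stands beside them. Ages, the number of mice per library and the construct behind the Tcf4 allele are not stated in the labels, so p-values measure only the spread between these libraries, part of which may be technical. The comparison asks what a heterozygous Tcf4 knockout changes in this model.

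Immediate early genes are switched on within minutes of a signal, without new protein synthesis, by factors already present in the cell such as SRF, its ETS partners and CREB. Their products are transcription factors and inhibitors of the signal that started them, and their transcripts are short-lived, so their level in a tissue also follows how the cells were handled before RNA was taken. Heat shock genes are driven by HSF1 when proteins misfold and encode chaperones, and the small heat shock proteins Cryab and Hspb1 are abundant in tissues of the eye also without stress.

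Total estimated counts were 30344161 to 54265479 per library, and 19635 to 22499 genes had a count. Tcf4, an E protein transcription factor and the targeted gene, measured 313, 470 and 430 CPM (counts relative to library size, TMM-scaled) without the Tcf4+/- label and 440, 599 and 373 CPM with it, so it did not set the groups apart as labelled (log2 fold change 0.22, 95% interval -0.52 to 0.96). The direction "higher in Tcf4+/-" below therefore refers to the labels. All 15 corneal endothelium markers were tested, and their summed level ran from 18368 to 27798 CPM in the Col8a2 group and from 14122 to 28432 CPM in Tcf4+/-. Corneal stroma markers summed to 9573 to 22070 CPM over the 6 libraries. They exceeded the endothelium markers in Col8a2 replicate 1 (20283 against 18368 CPM) and Tcf4+/- replicate 3 (16714 against 14122 CPM). The lists differ in length and share Ptgds, so these sums do not give shares of cells. Corneal epithelium markers summed to 2300 to 6717 CPM, and markers of lens, photoreceptors, iris and blood were also present. All 5 erythroid markers were fitted higher in Tcf4+/-, with a median log2 fold change of 1.56, 3 of them at an unadjusted edgeR p under 0.05 and 0 called, and summed to 531 to 1968 CPM in Col8a2 against 1362 to 6127 CPM in Tcf4+/-. Their part in the results on the members was not tested. In Tcf4+/- replicates 2 and 3, mitochondrial tRNA genes made up 15.6% and 15.8% of all TPM, a level divided by gene length. Their share was 0% in the other 4 libraries. TPM uses an effective length, which lay 155 and 150 bases under gene length in these replicates and 211 to 241 bases under it elsewhere. Whether the tRNA share follows that length was not tested, so it cannot be read as a trait of the samples.

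Promoter sequences of members are given first, because the 2 classes are known for different control elements. RefSeq promoters (assembly GRCm38.p6, used for sequence only because the data are on GRCm39) matched 30 members, 25 early and 5 heat shock, and the 250 bases before each start were searched on both strands. A pair of heat shock element repeats, GAANNTTC or TTCNNGAA, was found before 4 of the 5 heat shock genes, before 2 of the 25 early genes (Fosl2 and Jun) and before 12.8% of all 32851 promoters. The 4 heat shock genes are shown from the 60 bases that hold these letters, with each match in capitals, 5′ to 3′ on the strand of the gene. They lie at chr17:34972227-34972286 on the minus strand for Hspa1a, chr17:34959309-34959368 on the minus strand for Hspa1b, chr5:135887789-135887848 on the plus strand for Hspb1 and chr5:149636337-149636396 on the minus strand for Hsph1.
Hspa1a: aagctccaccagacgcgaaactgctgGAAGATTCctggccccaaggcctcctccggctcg
Hspa1b: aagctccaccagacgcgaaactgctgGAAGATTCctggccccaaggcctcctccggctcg
Hspb1: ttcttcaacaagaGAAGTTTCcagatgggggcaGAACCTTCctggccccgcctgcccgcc
Hsph1: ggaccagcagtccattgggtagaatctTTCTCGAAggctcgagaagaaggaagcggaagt
The windows of Hspa1a and Hspa1b are the same letter for letter, and the whole 250 bases differ at 3 positions. Dnajb1 held no match in this window. The heat shock triple, in which such a pair is followed after 2 bases by 1 more repeat in the alternate orientation, was found before 0 of the 5 heat shock genes, 0 of the 25 early genes and 0.466% of all promoters.

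Among early genes the core of the CREB site, CGTCA, was the motif found most often after the GC box. These letters, which read TGACG on the other strand, stood before 15 of the 25 early genes, before 2 of the 5 heat shock genes (Dnajb1 and Hspb1) and before 17.8% of all promoters. The GC box GGGCGG was found before 21 of the 25 early genes and all 5 heat shock genes, against 32.7% of all promoters. The full CREB site TGACGTCA, which contains that core, was found before 3 early genes (Btg2, Dusp1 and Maff) and 1.55% of all promoters. The CArG box, the letters bound by SRF, was found before 2 early genes (Dusp5 and Zfp36) and 1.47% of all promoters, and the AP-1 site TGACTCA before 0 of the 25 and 4.46% of all. TATAAA stood before 3 early genes (Btg1, Fos and Nr4a2), 0 heat shock genes and 12.4% of all promoters, and CCAAT before 8 early genes, 4 heat shock genes and 33.8% of all. The 3 Nr4a genes are printed because the clearest difference between the groups lies in this family, and Dusp1 and Dusp5 because they hold the full CREB site and a pair of CArG boxes. Capitals mark CGTCA or TGACG matches, and in Dusp5 also the CArG boxes. The windows lie at chr15:101266606-101266815 on the plus strand for Nr4a1, chr2:57124104-57124213 on the minus strand for Nr4a2, chr4:48045065-48045174 on the plus strand for Nr4a3, chr17:26508593-26508672 on the minus strand for Dusp1 and chr19:53529045-53529104 on the plus strand for Dusp5.
Nr4a1: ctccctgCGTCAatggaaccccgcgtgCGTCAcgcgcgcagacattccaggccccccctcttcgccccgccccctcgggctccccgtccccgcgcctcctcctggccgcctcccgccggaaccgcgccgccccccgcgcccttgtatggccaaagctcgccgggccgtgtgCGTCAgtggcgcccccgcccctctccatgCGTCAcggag
Nr4a2: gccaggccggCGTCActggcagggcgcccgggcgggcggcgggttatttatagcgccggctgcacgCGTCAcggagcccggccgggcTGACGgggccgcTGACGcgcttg
Nr4a3: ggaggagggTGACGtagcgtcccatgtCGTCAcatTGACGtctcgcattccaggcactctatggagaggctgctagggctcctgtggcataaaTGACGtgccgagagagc
Dusp1: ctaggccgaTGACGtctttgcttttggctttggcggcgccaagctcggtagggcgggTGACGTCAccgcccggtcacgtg
Dusp5: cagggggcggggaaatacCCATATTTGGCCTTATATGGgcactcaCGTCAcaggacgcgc
Each of the 3 Nr4a windows holds 4 such matches. The windows were chosen to show matches and differ in length, and how many other promoters hold 4 was not counted. A match is a run of letters, and whether a factor binds there was not measured.

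Compared per gene length, members spanned a wide range. Cryab, a small heat shock protein, had the highest median over the 6 libraries at 1150 TPM, followed by Hspb1, another small heat shock protein, at 365 TPM. The most abundant early gene was Dusp1, a phosphatase that switches off MAP kinases, at 146 TPM. Ier3 (89.9 TPM), Hsph1 (89.2 TPM), Jund (88.5 TPM) and Junb (71.9 TPM) came next, and the ranges of these 4 over the libraries overlapped each other. Dusp5, Ier2, Dnajb1, Klf4, Hspa1b and Jun had medians between 24.5 and 37.9 TPM. At the low end, 6 early genes had a median under 1 TPM, namely Fosb, Egr3, Egr4, Nr4a3, Dusp2 and Dusp4. The heat shock genes were thus among the more abundant members, with 5 of 6 at a mean of at least 20 TPM against 8 of 31 early genes.

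**Figure D1:**
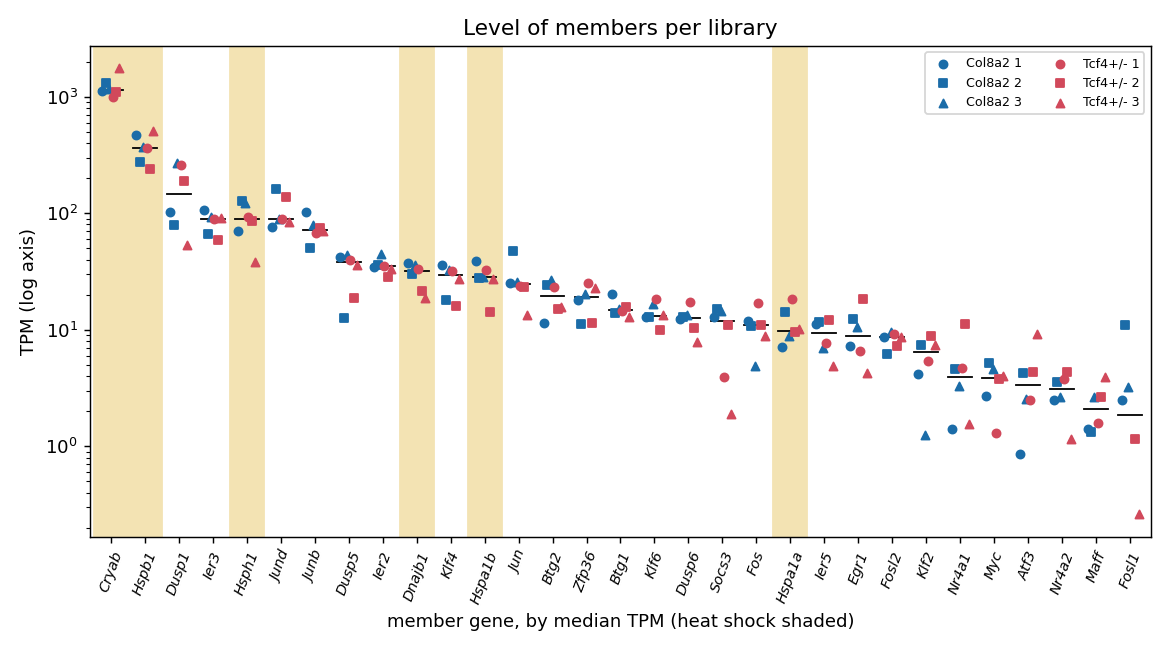
Level of each member with a median of at least 1 TPM, in TPM on a log axis, with 1 point per library (blue, Col8a2; red, Tcf4+/-; circle, square and triangle, replicates 1, 2 and 3) and a bar at the median. The medians of the shaded heat shock genes Cryab and Hspb1 stand above those of all early genes, and Socs3 and Fosl1 show low Tcf4+/- points; Fosl1 in Tcf4+/- replicate 1 is at 0 and cannot be drawn on this axis.

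Between the groups, 0 of the 36 tested members passed an adjusted p of 0.05 in edgeR's quasi-likelihood test, as did 0% of all genes in either direction and 0% in limma voom. At an unadjusted p under 0.05 there was 1 member, Nr4a3 (2.78% of 36), against 2.42% of all genes, 1.42% higher and 1% lower in Tcf4+/-. DESeq2 called 105 genes, 0.463% of the 22656 to which it gave an adjusted p, and 1 of them was a member, Nr4a3. The 3 libraries of one group all stood above the 3 of the other for 4 members (11.1%): Nr4a3 was higher in Tcf4+/-, and Fosl1, Jun and Socs3 were lower. The same held for 8.10% of all genes, 4.53% higher and 3.57% lower, so the members' share was near the background.

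Fitted values leaned upward in the early genes. Of 30 early genes tested, 23 were fitted higher and 7 lower in Tcf4+/-, against 50.1% higher and 49.9% lower over all genes. Their median log2 fold change was 0.17, against 0.0011 over all genes and a median standard error of 0.54 for a single gene. With other size factors for the counts, 22 to 24 were higher and 6 to 8 lower. On log2(TPM + 1), tested with limma, 14 were higher and 16 lower, and the early median was -0.027 where the median of all genes was -0.15. Without Col8a2 replicate 2 the counts were 15 and 15, with a median of 0.01. The 6 heat shock genes split into 3 higher and 3 lower, with a median of 0.09 that turned to -0.22 on log2(TPM + 1). Members varied within groups about as much as other genes of their level. For the 24 members of at least 10 CPM the median within-group SD of log2 CPM was 0.48, against 0.46 for all genes of that level.

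**Figure D2:**
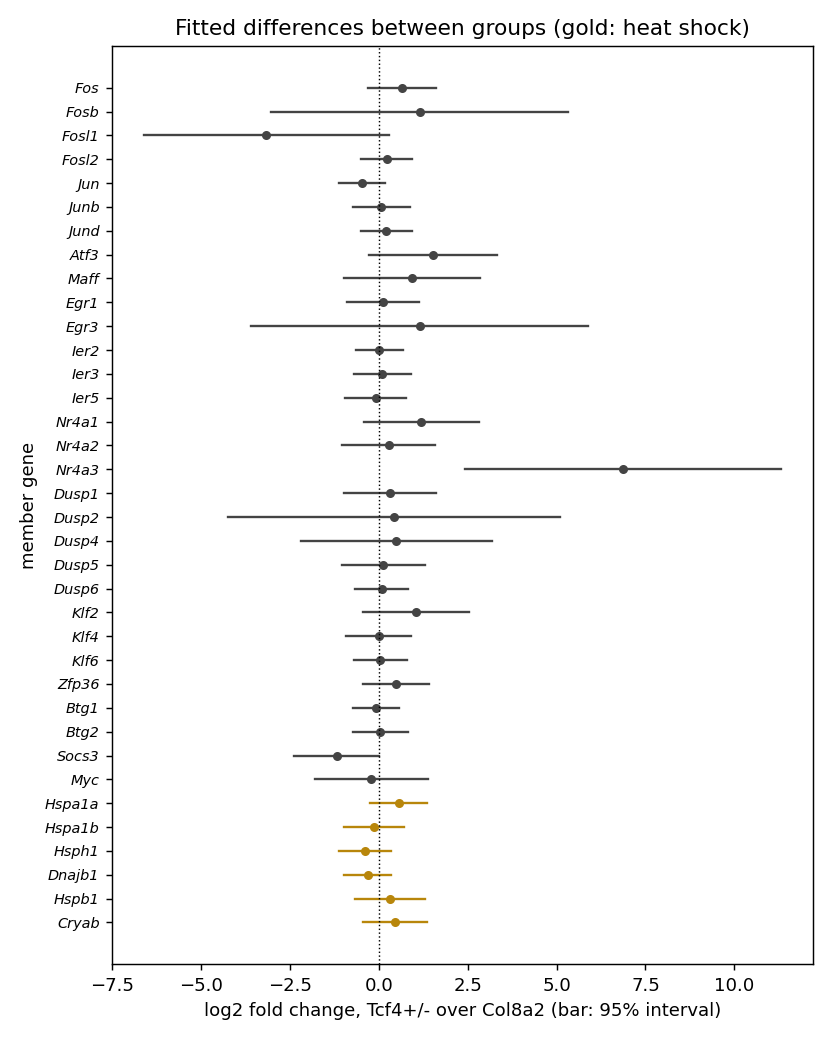
Fitted log2 fold change of each tested member (Tcf4+/- over Col8a2, TMM-scaled counts) with its 95% interval, early genes in grey and heat shock genes in gold. The interval of Nr4a3 lies above 0, that of Socs3 ends at 0.02, and the intervals of all other members include 0.

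The Nr4a genes encode orphan nuclear receptors that need no hormone to act. Nr4a3 had 0, 0 and 2 estimated counts in the Col8a2 libraries and 33, 129 and 75 in the Tcf4+/- libraries. These correspond to 0, 0 and 0.04 CPM against 0.70, 2.34 and 2.53 CPM, so all 3 Tcf4+/- libraries stood above all 3 Col8a2 libraries. Scaled for depth, the ratio of the summed counts, 237 against 2, was 132 (95% exact binomial interval 36.2 to 1099, counting error only). Its fitted log2 fold change was 6.86 (SE 1.98, 95% interval 2.41 to 11.30), with an unadjusted edgeR p of 0.0065 and a Benjamini-Hochberg adjusted p of 0.9999. DESeq2 gave an adjusted p of 0.0059. The gene stayed scarce even where it was higher, at 0.18, 0.50 and 1.08 TPM. The 2 Tcf4+/- libraries with the highest Nr4a3, replicates 2 and 3, were also those with mitochondrial tRNA in TPM and the highest lens markers. Their effective lengths also lay closest to gene length. The part of these features in the result was not tested. Without those 2 libraries the fitted log2 fold change was still 5.46, from the 33 counts of Tcf4+/- replicate 1 against 0, 0 and 2, and with that lone library assumed to vary like the others the unadjusted edgeR p was 0.15.

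Nr4a1, the family member induced most widely, was at 2.70, 7.77 and 6.80 CPM in the Col8a2 libraries and at 10, 24.9 and 4.52 CPM in the Tcf4+/- libraries. Replicates 1 and 2 of Tcf4+/- stood above all Col8a2 libraries, and replicate 3 lay among them (log2 fold change 1.19, SE 0.72). Nr4a2, known for its role in dopamine neurons, was at 7.80, 8.40 and 7.25 CPM against 10.4, 13.5 and 4.35 CPM. It had the same order of libraries as Nr4a1 within the Tcf4+/- group, with a smaller fitted change of 0.27 (SE 0.58). The family's median log2 fold change was 1.19 with 3 of 3 fitted higher. On log2(TPM + 1) Nr4a2 was at -0.035, where the median of all genes was -0.15.

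The AP-1 genes encode Fos and Jun family proteins, which pair to bind DNA, and related basic leucine zipper factors. Of the 9 tested, 7 were fitted higher and 2 lower, with a median of 0.22. Junb and Jund turned to -0.083 and -0.019 on log2(TPM + 1), where the median of all genes was -0.15. Jun, the transactivating partner of Fos, was at 74.5, 111 and 69.8 CPM in the Col8a2 libraries against 66.5, 66.6 and 49.7 CPM in Tcf4+/-. Its groups did not overlap, although the lowest Col8a2 and the highest Tcf4+/- library lay close together (log2 fold change -0.48, SE 0.29).

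Junb, a weaker activator than Jun, was at 163, 63.6 and 116 CPM in the Col8a2 libraries and at 101, 116 and 140 CPM in the Tcf4+/- libraries. Jund, the member of the family expressed most steadily in resting cells, was at 109, 183 and 117 CPM against 120, 198 and 155 CPM. Both overlapped between groups, and Col8a2 replicate 2 was the lowest library for Junb. Per length, Jund gave the largest part of the summed Jun family TPM in 5 of the 6 libraries, and Junb in Col8a2 replicate 1. Jun itself made up 12.4%, 18.2% and 13.2% of that sum in Col8a2 against 13.2%, 9.83% and 8.05% in Tcf4+/-.

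Fosl1, which encodes Fra-1, the Fos protein of migrating and injured epithelia, was at 4.04, 7.39 and 2.55 CPM in the Col8a2 libraries and at 0, 1.14 and 0.40 CPM in the Tcf4+/- libraries. The 0 of Tcf4+/- replicate 1 allows a level of up to 0.0635 CPM (3 counts, counting error only). The groups did not overlap, and the fitted log2 fold change was -3.16 (SE 1.54) with an unadjusted edgeR p of 0.068. Fosl1 made up 10.9%, 38.7% and 18.1% of the summed Fos family TPM in Col8a2 against 0%, 5.62% and 1.46% in Tcf4+/-. Fosl1 overlaps Ccdc85b on the opposite strand, and the library kit is not described as keeping the strand, so reads from the stretch the 2 genes share cannot be told apart.

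Fos, the early gene most used as a mark of recent stimulation, had a fitted change of the opposite sign. It was at 21.2, 15.5 and 8.34 CPM in the Col8a2 libraries and at 29.3, 20.4 and 21.1 CPM in the Tcf4+/- libraries. Col8a2 replicate 1 stood inside the Tcf4+/- range, and the fitted log2 fold change was 0.65 (SE 0.43). Fosl2, which encodes Fra-2, was at 30.7 to 55.3 CPM in Col8a2 and 43 to 64.7 CPM in Tcf4+/-, and Fosb did not exceed 4.09 CPM in any library. Atf3, a stress-induced repressor of the ATF family, was at 1.44, 5.57 and 4.07 CPM against 4.07, 7.50 and 20.4 CPM, with its highest level in Tcf4+/- replicate 3 (log2 fold change 1.52, SE 0.80). Without that library the change was 0.64. Maff, a small Maf protein that pairs with NRF and AP-1 factors, had the same highest library, at 8.64 CPM, against 1.74 to 4.38 CPM in the other 5.

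**Figure D3:**
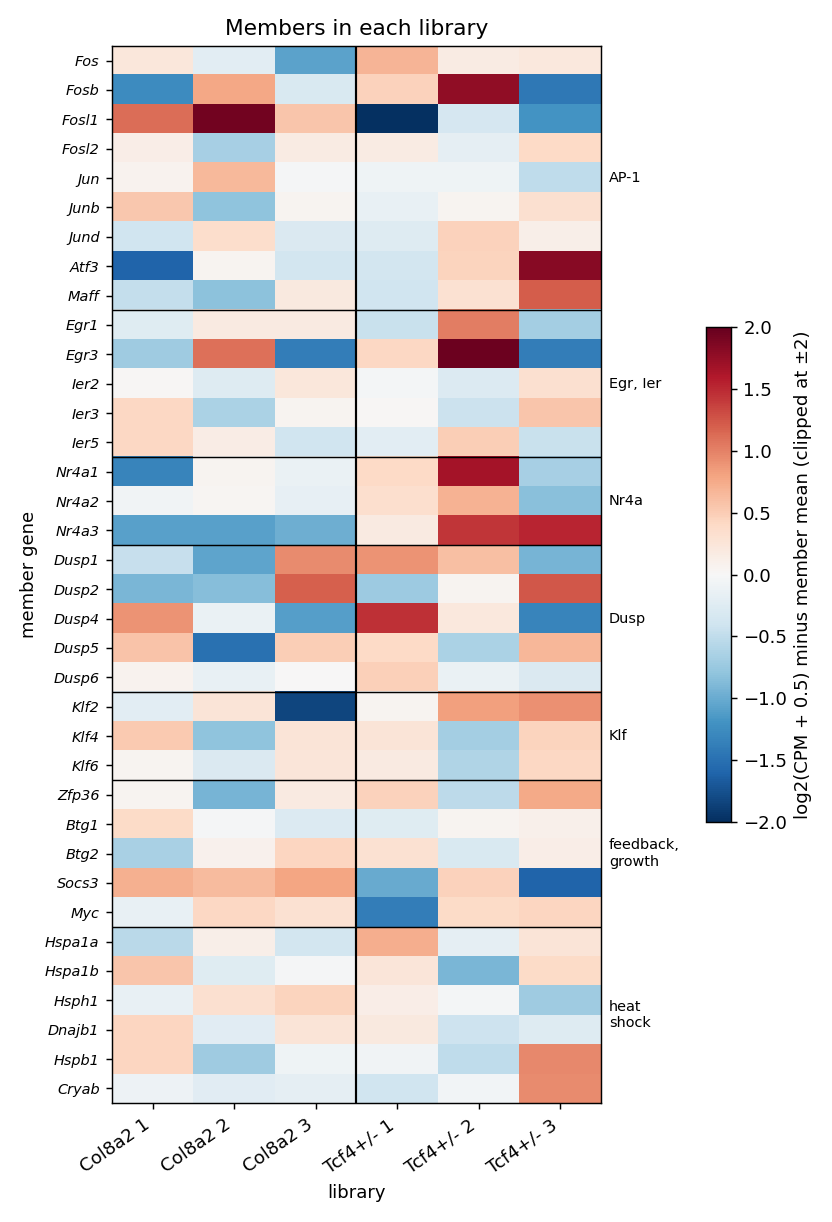
Level of each tested member in each library as log2(CPM + 0.5) minus the mean of that member over the 6 libraries, ordered by role, with red above and blue below the mean and values clipped at ±2. The rows of Fosl1 and Nr4a3 change colour at the line between the groups, and in the row of Socs3 replicate 2 of Tcf4+/- stands above the mean between 2 libraries below it.

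Egr and Ier genes showed no separation. Egr1, a zinc finger factor induced by growth signals, was at 30.7, 41.6 and 41.4 CPM in the Col8a2 libraries and at 26.6, 74.5 and 22.5 CPM in the Tcf4+/- libraries. Replicate 2 of Tcf4+/- was the highest of all libraries and the other Tcf4+/- replicates the lowest, and without replicate 2 the log2 fold change turned from 0.12 to -0.61. Egr3, a close relative, had 0 counts in replicate 3 of both groups and at most 4.56 CPM elsewhere. Egr4 had 0, 2 and 0 counts against 28, 0 and 0, so its difference lay in 1 library.

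Ier2, a nuclear protein induced with Fos, was at 45.2, 37.1 and 52.5 CPM in the Col8a2 libraries and at 43.3, 36.9 and 55.8 CPM in the Tcf4+/- libraries. Its log2 fold change of 0.01 had a 95% interval from -0.65 to 0.67. Ier3, a regulator of survival downstream of ERK, was at 98.1, 47.2 and 76.8 CPM against 75.2, 54.6 and 108 CPM. In both genes replicate 2 was the lowest library of each group. Ier5, which is linked to HSF1 activity, was at 18.6 to 36.1 CPM over all 6 libraries, and its 2 highest and 2 lowest libraries each included both groups.

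The Dusp genes encode phosphatases that remove the activating phosphates from MAP kinases, and thus act as negative feedback on the pathway that induces them. All 5 were fitted higher, with a median log2 fold change of 0.32. Dusp6 turned to -0.19 on log2(TPM + 1), where the median of all genes was -0.15. Dusp1 was at 154, 101 and 408 CPM in the Col8a2 libraries and at 397, 320 and 111 CPM in the Tcf4+/- libraries. It thus spanned about 4-fold within each group, and its log2 fold change moved from -0.041 to 1.12 as single libraries were left out. Dusp5, a nuclear ERK phosphatase, was at 94.9, 22.5 and 90.0 CPM against 84.2, 40.9 and 102 CPM, lowest in replicate 2 of both groups. Dusp6, a cytoplasmic ERK phosphatase, was steadier, at 24.8 to 29.1 CPM in Col8a2 and 22.6 to 38.7 CPM in Tcf4+/-. Dusp4 lay between 0.47 and 6.18 CPM and Dusp2 between 0 and 1.72 CPM, both with overlapping groups.

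The Klf genes encode zinc finger factors of epithelial and endothelial identity. Klf4, a corneal epithelial factor, was at 101, 39.8 and 83.4 CPM in the Col8a2 libraries and at 83.9, 43.7 and 95.5 CPM in the Tcf4+/- libraries, lowest in replicate 2 of both groups. Klf6, an injury-induced member, was at 30.3 to 61.8 CPM and had its lowest library in replicate 2 of both groups too. Klf2, a flow-induced factor of vascular endothelium, was at 6.75, 9.57 and 1.84 CPM against 8.24, 14.2 and 15.3 CPM. The log2 fold changes were -0.01 for Klf4, 0.04 for Klf6 and 1.06 (SE 0.67) for Klf2, and the groups overlapped in each. All 6 vascular endothelium markers were fitted higher in Tcf4+/- (median log2 fold change 0.82), 0 of them at an unadjusted edgeR p under 0.05. They summed to 102, 66.8 and 23.0 CPM in Col8a2 against 82.1, 160 and 72.6 CPM in Tcf4+/-. Like Klf2, they were lowest in Col8a2 replicate 3, and their part in its level was not tested.

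Socs3, an inhibitor of cytokine signalling induced through STAT3, was even across the Col8a2 libraries and uneven across those labelled Tcf4+/-. It was at 29.6, 28.0 and 31.1 CPM in the Col8a2 libraries and at 8.64, 24.8 and 5.54 CPM in the Tcf4+/- libraries. All Tcf4+/- libraries were below the Col8a2 range, replicate 2 only just. The fitted log2 fold change was -1.18 (SE 0.54, 95% interval -2.38 to 0.02), with an unadjusted edgeR p of 0.053 and an adjusted p of 0.9999. Without Tcf4+/- replicate 2 it was -2.05, and without replicate 3 it was -0.83.

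The other feedback and growth genes overlapped between groups. Zfp36, which encodes tristetraprolin, a protein that destabilises early mRNAs, was at 41.1, 20.5 and 44.4 CPM in the Col8a2 libraries and at 54.3, 27.0 and 66.7 CPM in the Tcf4+/- libraries, lowest in replicate 2 of both groups. Btg1 and Btg2, antiproliferative genes, were at 42.7 to 68.2 CPM and 28.6 to 61.4 CPM over all libraries. Myc, a growth factor-induced transcription factor, was at 1.93 CPM in Tcf4+/- replicate 1 and at 5.16 to 8 CPM in the other 5. Over the 5 genes of this group the median log2 fold change was -0.08, with 2 fitted higher and 3 lower.

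Among the heat shock genes, Hspa1a and Hspa1b encode the inducible HSP70 chaperone from neighbouring, nearly identical genes. Hspa1a was at 19.6, 31.1 and 22.2 CPM in the Col8a2 libraries and at 47.8, 25.3 and 34.3 CPM in the Tcf4+/- libraries. Hspa1b was at 99.8, 57.4 and 66.8 CPM against 79.9, 35.8 and 88.2 CPM. Their fitted changes had opposite signs, 0.56 (SE 0.36) and -0.14 (SE 0.38). The transcripts share 47.1% and 49.9% of their 100-base windows, so the division of reads between the 2 genes is uncertain. Summed, the pair was at 119, 88.4 and 89.0 CPM against 128, 61.1 and 123 CPM, and its log2 fold change was 0.07 (SE 0.33, 95% interval -0.68 to 0.81).

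Hsph1, an HSP110 that acts as nucleotide exchange factor of HSP70, was at 233, 322 and 353 CPM in the Col8a2 libraries and at 283, 252 and 158 CPM in the Tcf4+/- libraries. Dnajb1, the HSP40 partner that delivers clients to HSP70, was at 103, 65.7 and 91.6 CPM against 87.8, 57.7 and 64.2 CPM. The groups overlapped in both, with log2 fold changes of -0.39 (SE 0.33) and -0.32 (SE 0.29). The Hsph1 level was lowest in Tcf4+/- replicate 3, the library in which the small heat shock genes were highest.

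Hspb1, which encodes HSP27, a small heat shock protein that holds unfolded clients and stabilises actin, was at 323, 147 and 226 CPM in the Col8a2 libraries and at 229, 169 and 468 CPM in the Tcf4+/- libraries. Cryab, which encodes alpha-B crystallin, was at 710, 648 and 674 CPM against 580, 733 and 1471 CPM. In both the highest library was Tcf4+/- replicate 3. Cryab overlaps Hspb2 on the opposite strand, so part of its reads may belong to that gene. Without Tcf4+/- replicate 3 the log2 fold change turned from 0.31 to -0.23 for Hspb1 and from 0.45 to -0.053 for Cryab. Cryab is also a major protein of the lens, and the 15 lens markers summed to 629, 33.9 and 299 CPM in the Col8a2 libraries and to 96.0, 4312 and 11343 CPM in the Tcf4+/- libraries, highest in the same library. All 14 lens markers tested were fitted higher in Tcf4+/-, 9 of them (64.3%) at an unadjusted edgeR p under 0.05, against 2.42% of all genes. Of the 14, edgeR called 0 and DESeq2 called 1, and for 1 (7.14%, against 8.10% of all genes) the groups did not overlap. Crygd, a fibre cell crystallin, was at 0 in every Col8a2 library. Photoreceptor markers were highest in Tcf4+/- replicate 3 as well, at 9383 CPM against 2162 to 4585 CPM in the other 5 libraries. The part of lens or photoreceptor RNA in the levels of Cryab and Hspb1 was not tested, and fewer cells of a type and less RNA per cell cannot be told apart in such bulk samples.

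Early and heat shock members were then set against each other within each library, by the mean log2 CPM of the 30 early and the 6 heat shock genes tested. The early genes averaged 3.55, 3.66 and 3.68 in Col8a2 against 3.77, 4.27 and 3.73 in Tcf4+/-, and the heat shock genes averaged 7.22, 6.95 and 7.12 against 7.25, 6.76 and 7.38. The library with the highest early mean, Tcf4+/- replicate 2, thus had the lowest heat shock mean. Such a mean gives scarce and abundant genes the same weight. By summed CPM that library was not the highest for early genes, at 1336 against 1437 in Col8a2 replicate 3 and 1405 in Tcf4+/- replicate 1. Its summed heat shock CPM was 1272.5, beside 1271.5 in Col8a2 replicate 2. The difference, early minus heat shock, was -3.67, -3.29 and -3.44 against -3.48, -2.49 and -3.65. Averaged by group it was -3.47 ± 0.19 in Col8a2 and -3.21 ± 0.62 in Tcf4+/- (SD, n = 3), which is 0.26 higher in Tcf4+/- and smaller than the spread within that group. Without Tcf4+/- replicate 2 the group difference was -0.10, so its sign rested on that library. Its size also depended on scarce genes, and over genes with a mean of at least 5 CPM it was 0.14.

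**Figure D4:**
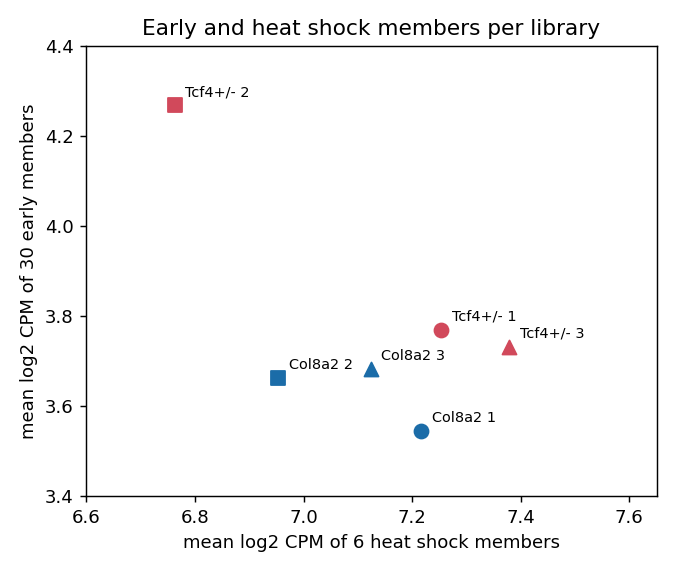
Mean log2 CPM of the 30 early genes (vertical axis) against that of the 6 heat shock genes (horizontal axis), with 1 labelled point per library, blue for Col8a2 and red for Tcf4+/-. Replicate 2 of Tcf4+/- stands alone at 4.27 and 6.76, and the other 5 libraries lie between 3.55 and 3.77 on the early axis.

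The members did not move as one block across libraries. For 10 members (27.8%) replicate 2 was the lowest library in both groups, namely Fosl2, Ier2, Ier3, Dusp5, Klf4, Klf6, Zfp36, Hspa1b, Dnajb1 and Hspb1, against 13.6% of all genes. For 8 others (22.2%) it was the highest in both, namely Fosb, Fosl1, Jun, Jund, Egr1, Egr3, Nr4a1 and Nr4a2, against 15.3% of all genes. This way of sorting the members was chosen after their values were seen, and it is a description. None of the 6 heat shock genes was highest in replicate 2 of both groups. The summed corneal epithelium markers were also lowest in replicate 2 of both groups, with 2993 against 3911 and 6478 CPM in Col8a2 and 2300 against 4776 and 6717 CPM in Tcf4+/-, and 4 of the 7 markers followed that order. Other marker lists followed the same order, with 5 of 5 erythroid markers (531 CPM against 1296 and 1968 in Col8a2, 1362 against 2943 and 6127 in Tcf4+/-) and 3 of 5 photoreceptor markers lowest in replicate 2 of both groups. In the opposite order, highest in replicate 2 of both groups, were 4 of 5 melanocyte and iris markers and 6 of 15 corneal endothelium markers. The part of these cell types in the order of the members was not tested. Tcf4+/- replicate 3, the shallowest library, was the highest of all 6 for 12 early genes and the lowest for 8. The share of all genes highest or lowest in this library was not computed, so these counts cannot be read as a trait of the early genes.

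Other genes of the same pathways gave no call either. Of 43 further early genes 39 were tested, with 13 fitted higher, 26 lower, a median log2 fold change of -0.10 and 0 at an unadjusted p under 0.05, which is the opposite lean to the 30 early members. The most abundant were Ccn1, a matrix-bound signalling protein, at 579, 464 and 391 CPM against 286, 552 and 118 CPM, Ccn2, its relative, at 203 to 272 against 87.7 to 422 CPM, and the E protein inhibitor Id1 at 57.4 to 75.6 against 46.3 to 108 CPM. The smallest unadjusted p values belonged to Trib1, a pseudokinase, at 34.2, 26.4 and 22.3 CPM against 18.5, 19.6 and 10.6 CPM, and Sik1, a CREB-induced kinase, at 8.62, 3.51 and 4.21 CPM against 13.4, 10.8 and 11.8 CPM. Neither pair of groups overlapped, and the log2 fold changes were -0.77 (SE 0.38) and 1.14 (SE 0.57). Of the 39 genes, 2 were higher and 4 lower without overlap (15.4%), against 8.10% of all genes.

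Of the 23 kinases and transcription factors upstream of early genes, 8 were fitted higher and 15 lower, with a median of -0.11 and 0 at an unadjusted p under 0.05. Creb1, which encodes CREB, was at 32.6, 34.5 and 35.4 CPM in the Col8a2 libraries and at 21.9, 24.9 and 12.2 CPM in the Tcf4+/- libraries. All Tcf4+/- libraries were below all Col8a2 libraries (log2 fold change -0.80, SE 0.36, unadjusted edgeR p 0.052). Rps6ka3, which encodes the CREB kinase RSK2, had the same order of groups, at 35.8, 40.6 and 37.1 CPM against 26.0, 30.2 and 18.7 CPM. In this list 3 of 23 genes were lower without overlap (13.0%), the third being Mapk3, against 8.10% of all genes without overlap in either direction. The ERK pathway kinases Map2k2, Mapk3 and Map2k1 were the most abundant, with log2 fold changes of 0.09, -0.37 and -0.05.

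Of the 26 further heat shock and HSF genes, all tested, 13 were fitted higher and 13 lower, with a median of 0.01. At an unadjusted p under 0.05 there were 2 (7.69%, against 2.42% of all genes), Hspb6 and Cryaa, and 0 passed the adjusted threshold (0.9999 for both). Hspb6, which encodes the small heat shock protein HSP20, was at 26.3, 24.7 and 18.7 CPM in the Col8a2 libraries and at 54.6, 32.2 and 65.9 CPM in the Tcf4+/- libraries, without overlap (log2 fold change 1.13, SE 0.35). In this list 1 gene was higher and 1 lower without overlap (7.69%), against 8.10% of all genes. Cryaa, which encodes the lens chaperone alpha-A crystallin and is itself among the lens markers, was at 249, 16 and 74.1 CPM against 25.2, 1109 and 4267 CPM, with overlapping groups. The constitutive chaperones Hspa8 and Hsp90ab1 were the most abundant beside it, with log2 fold changes of 0.03 (SE 0.32) and -0.20 (SE 0.31).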

How the data were processed

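RNA came from the RNeasy Micro Kit, and full-length cDNA made with SMART-Seq HT was turned into libraries with Nextera XT, per the labels' protocols. FastQC 0.12.1, fastp 0.23.2, STAR, RSEM, DESeq2 and build GRCm39 are named in the submitters' processing notes; the annotation release is not stated there. The files deposited by the authors hold, per the file headers, expected counts (9.97% of values not whole), TPM, gene length and effective length. TPM divides by effective length, which lay 211, 234 and 234 bases under gene length in the Col8a2 libraries and 241, 155 and 150 in the Tcf4+/- libraries, so TPM serves here to compare genes and CPM to compare libraries.

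Identifiers were matched to symbols with GENCODE M21, used only for names and for which genes overlap, and 51884 of 57180 matched. Of the members, 10 overlap a gene on the opposite strand (Fosl1, Jun, Junb, Jund, Atf3, Dusp1, Dusp5, Zfp36, Hspa1a and Cryab). Dusp1 also overlaps the genes AC122252.4 and AC122252.1 on its own strand. Counts were rounded, filtered with filterByExpr to 17639 genes, scaled by TMM and tested by edgeR 4.0.16 with its quasi-likelihood F-test (R 4.3.3, robust, group as the only term, Benjamini-Hochberg adjustment over all genes, threshold 0.05). The common biological coefficient of variation was 0.744. CPM are TMM-scaled, and mean log2 CPM uses a prior count of 2. With 3 against 3, an exact permutation test cannot go below p = 0.1. The script was tested on simulated counts, and every pair of libraries differed by more than sampling noise. Other settings tried were DESeq2 1.42.0, limma voom 3.58.1, other size factors and filters, limma on log2 TPM, a replicate block and each library left out.

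Members and lists were chosen with earlier results of these data known. All members may be named, with values for every library where the mean is at least 20 TPM or the unadjusted p is under 0.05. Of each further list the 3 genes of highest mean TPM, the 2 of smallest p and all with an unadjusted p under 0.05 were named.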

Additional observations from a re-analysis of the deposited data

How the results depend on the processing

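No member was called under any alternative except Nr4a3 in DESeq2, which called 1 member and 105 genes (log2 fold change 7.12). Leaving out 1 library gave 0 to 4 genes called, 4 without Col8a2 replicate 3. The early median stayed between 0.01 and 0.27 with single libraries left out and was -0.027 and -0.036 on log2(TPM + 1) and log2(TPM + 0.1). The heat shock median was -0.22 and -0.23 on those scales and ran from -0.21 without Tcf4+/- replicate 3 to 0.40 without replicate 2. Early minus heat shock ran from -0.10 to 0.48. Against 0.26 in the main setting, it was 0.14 at a mean of at least 5 CPM and 0.15 on log2(TPM + 1). With a prior count of 0.5 it was 0.30. DESeq2, voom and the block give no value for it. Genes under 5 CPM have no value under the stricter filter.

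After group means were removed, libraries of the same replicate number correlated at -0.02, 0.14 and -0.02 across groups. Libraries of unlike number ran from -0.085 to 0.089, so only replicate 2 stood above that range. The labels do not say that the numbers pair the samples. With the replicate block, 0 genes were called, 432 had an unadjusted p under 0.05 against 427 without it, the medians were 0.19 (early) and 0.02 (heat shock), and Egr1 (-0.084), Klf4 (0.021) and Klf6 (-0.0049) changed sign.

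A sign opposite to the main value was seen in 86 of 641 member values. On log2(TPM + 1) and log2(TPM + 0.1) the median of all genes was itself at -0.15 and -0.18. 11 members never changed sign: Atf3, Fos, Fosl1, Hspa1a, Hsph1, Jun, Klf2, Nr4a1, Nr4a3, Socs3 and Zfp36. The changed log2 fold changes on log2(TPM + 1) were Junb -0.083, Jund -0.019, Egr1 -0.24, Ier2 -0.23, Ier3 -0.15, Nr4a2 -0.035, Dusp6 -0.19, Klf6 -0.048, Btg2 -0.13 and Hspb1 -0.034. On log2(TPM + 0.1) they were Junb -0.083, Jund -0.019, Egr1 -0.29, Ier2 -0.24, Ier3 -0.16, Nr4a2 -0.10, Dusp6 -0.21, Klf6 -0.053, Btg2 -0.13 and Hspb1 -0.034. In voom they were Egr1 -0.0011, Ier2 -0.022, Klf4 0.0022 and Klf6 -0.045. Ier2 was -0.0064 by library size alone, and Klf4 was 0.0014 with RLE factors, 0.058 with upper-quartile factors and 0.040 at 5 CPM or more. After the data were seen, fits without Tcf4+/- replicates 2 and 3 were added, with Junb -0.18, Jund -0.19, Maff -0.12, Egr1 -0.52, Ier2 -0.061, Dusp2 -3.08, Klf4 0.16, Hspa1b 0.089, Dnajb1 0.0060, Hspb1 -0.025 and Cryab -0.23. Fits without replicate 2 of both groups, also added then, gave Junb -0.20, Egr1 -0.55, Nr4a2 -0.026, Dusp1 -0.15 and Hspa1b 0.018.

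With 1 library left out, signs changed within these ranges: Btg1 -0.22 to 0.12, Btg2 -0.21 to 0.30, Cryab -0.053 to 0.70, Dusp1 -0.041 to 1.12, Dusp2 -1.04 to 5.86, Dusp4 -0.60 to 1.35, Dusp5 -0.29 to 0.44, Dusp6 -0.19 to 0.22, Egr1 -0.61 to 0.41, Egr3 -0.49 to 3.68, Fosb -0.27 to 2.46 and Fosl2 -0.0039 to 0.38. The others were Hspa1b -0.38 to 0.18, Hspb1 -0.23 to 0.62, Ier2 -0.17 to 0.16, Ier3 -0.20 to 0.35, Ier5 -0.41 to 0.10, Junb -0.22 to 0.40, Klf4 -0.31 to 0.28, Klf6 -0.19 to 0.30, Myc -0.50 to 0.20 and Nr4a2 -0.075 to 0.61. The cause was not tested. With 3 libraries a group, the median SE of 0.54 limits which changes of a single gene could be told from 0.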
